A study of Mus musculus with 9 samples.

Results

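Smooth muscle and pericyte genes are the 10 genes Acta2, Tagln, Myh11, Cnn1, Myl9, Rgs5, Kcnj8, Abcc9, Cspg4 and Mcam, taken by name from the 26214 genes of the normalized read table. The first 5 belong to the contractile apparatus of smooth muscle and the other 5 are markers of pericytes. They were described in sorted stromal cells of C57Bl/6 mice (C57Bl/6 J in the study's methods). Adipose stromal cells (ASCs, 3 libraries) came from the subcutaneous adipose tissue (ScAT) of NaCl-injected mice, and fibro-adipogenic progenitors (FAPs, 2 libraries) came from their quadriceps. Injured FAPs (3 libraries) came from quadriceps injected with glycerol, which damages myofibers. All cells were taken at Day 1, 1 day after injection, from adult male mice, and RNA was made from cells pooled over several animals. ASCs and FAPs had been depleted of CD31+ and CD45+ cells on magnetic columns and then enriched for Sca-1, the surface protein encoded by Ly6a. A single library labelled CD31+CD45+, from glycerol-injected quadriceps, was used for its values and entered no test. The study calls its replicates biological and describes triplicates from pooled cells, without saying whether each library had a pool of its own. The p-values therefore measure the spread between these libraries, which may be technical.

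Vascular smooth muscle cells wrap arteries, arterioles and large veins and contract through smooth muscle myosin sliding on alpha smooth muscle actin. Pericytes sit on capillaries within the basement membrane that they share with the endothelium, and together both cell types are called mural cells. Several contractile genes are also switched on in fibroblasts that become myofibroblasts, whereas Rgs5 and the subunits of the vascular potassium channel are better known from pericytes.

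Many contractile genes are controlled by serum response factor (Srf), which binds the CArG box. The stretches upstream of a few members are shown for their letters, and their part in the changes was not tested. In RefSeq's table of 32851 mouse promoters (build GRCm38.p6), 8 of the 10 members were matched by symbol, and Tagln and Myh11 were not. The search for the CArG box took CC, then 6 bases that were all A or T, then GG, a pattern that is its own reverse complement and so covers both strands. It was found in 1.63% of promoters and in 1 of the 8 members, Myl9. A looser form, chosen after the first search, allowed 1 of the 6 inner bases to be G or C, and was present in 9.98% of promoters and in 2 of the 8 members, Acta2 and Myl9. Capitals mark these matches, the looser form including the strict one. The Myl9 stretch (chr2:156775214-156775419, plus strand) lies upstream of the first exon and holds a strict and a looser match. The Acta2 stretches (chr19:34255438-34255467 and chr19:34255388-34255417, minus strand) lie before the RefSeq start and inside a first exon of the GENCODE annotation, so only 30 bases around each match are given. The Rgs5 stretch (chr1:169655301-169655500, plus strand) lies upstream of the first exon and is shown as a pericyte gene with no match in these letters.
Acta2, first match: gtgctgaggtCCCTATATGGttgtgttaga
Acta2, second match: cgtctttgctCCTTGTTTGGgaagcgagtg
Myl9: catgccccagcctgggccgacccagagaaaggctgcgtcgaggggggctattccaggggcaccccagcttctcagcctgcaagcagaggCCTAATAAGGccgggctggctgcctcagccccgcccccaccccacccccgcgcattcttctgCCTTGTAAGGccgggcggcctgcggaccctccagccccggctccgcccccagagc
Rgs5: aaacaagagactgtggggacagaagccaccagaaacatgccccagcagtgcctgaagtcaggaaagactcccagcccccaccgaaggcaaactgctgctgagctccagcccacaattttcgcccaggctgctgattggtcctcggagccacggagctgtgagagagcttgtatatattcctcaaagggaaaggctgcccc
A match describes the letters only and is not a measured binding site. The MCAT motif, CATTCC on either strand, was present in 14.7% of promoters and in 2 of the 8 members, Acta2 and Abcc9. The Notch effector motif GTGGGAA, likewise searched on both strands, was present in 6.38% of promoters and in none of the 8.

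The libraries held 24052508 and 24164447 reads in FAPs, between 26698572 and 27028114 in injured FAPs, between 27349184 and 27481573 in ASCs and 13091077 in the CD31+CD45+ library. Values below are reads normalized by the authors for library size, not for gene length, so that levels of different genes are compared only after division by exonic length. The markers of the sorted stromal cells set the libraries apart unequally. Pdgfra, a marker by which the study identified FAPs, was between 10837 and 25268 in the 8 sorted libraries and 119 in the CD31+CD45+ library. Ly6a was between 10823 and 49855 in the 8 sorted libraries and 17672 in the CD31+CD45+ library, above both FAP libraries (16542 and 10823). Cd34 was 17085 in the CD31+CD45+ library, above the injured FAPs (between 10736 and 11933) and below FAPs and ASCs. All 10 members had a mean of at least 10 normalized reads over the 8 sorted libraries and were tested, as 10 of 13601 genes. Changes are log2 fold changes on the log2(value + 1) scale, which understates the change of genes with few reads. They come from 1 limma fit over the 3 groups with Benjamini-Hochberg adjustment over all genes tested. The standard error (SE) and p therefore also draw on the spread within the group not compared, such as ASCs in injured FAPs against FAPs. Genes are called higher or lower where the adjusted p is below 0.05 and the size of the log2 fold change is above 0.58.

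Injury was asked about first, by setting injured FAPs against FAPs. All 5 contractile genes and 4 of the 5 pericyte genes were called lower, and no member was called higher. Over all genes tested, 27.7% were called lower and 24.9% higher. The median log2 fold change was -2.27 for the contractile genes and -1.45 for the pericyte genes, against -0.05 for all genes tested. The injured libraries were all below the FAP libraries for 9 of the 10 members, the exception being Cspg4. This was so for 43.6% of all genes tested, and 84.0% did not overlap in either direction.

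Acta2, alpha smooth muscle actin, the thin filament protein also used to mark myofibroblasts, was at 5396 and 4848 normalized reads in FAPs and at 1400, 1441 and 1325 in injured FAPs. Both FAP libraries were well above all 3 injured libraries, and the injured libraries lay close together. The log2 fold change was -1.88 (SE 0.342, limma adjusted p = 7.59e-04). Tagln, an actin-binding protein of smooth muscle also called transgelin or SM22, was at 1729 and 1349 in FAPs and at 409, 427 and 443 in injured FAPs. The groups did not overlap, and the spread between the FAP libraries was wider than between the injured ones. Its log2 fold change was -1.84 (SE 0.292, adjusted p = 3.12e-04). Tagln shares 94 exonic bases with Pcsk7 and 877 with an antisense gene on the opposite strand. The strand setting of the counting is not given in the sources used here, so reads of these neighbours cannot be told apart from Tagln reads.

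Myh11, the heavy chain of smooth muscle myosin and the most restricted marker of mature smooth muscle in this group, was at 2873 and 2246 in FAPs and at 253, 326 and 316 in injured FAPs. The injured libraries were all far below the FAP libraries. Myh11 and Cnn1 had the largest falls of the 10 members. The log2 fold change of Myh11 was -3.09 (SE 0.610, adjusted p = 0.00126). Cnn1, calponin, which restrains actomyosin in smooth muscle, was at 55.2 and 32.0 in FAPs and at 1.57, 7.75 and 5.34 in injured FAPs. These values stand for 58 and 34 reads in FAPs and for 2, 10 and 7 reads in injured FAPs, so Cnn1 was the least abundant member and was measured with few reads. The groups did not overlap, and the log2 fold change was -3.04 (SE 0.677, adjusted p = 0.00266). With edgeR and DESeq2 the fall of Cnn1 was slightly larger than that of Myh11, at -3.08 against -3.06 and -3.14 against -3.08. With 8 added to each value in place of 1 it was -1.99, still called lower. Myl9, a regulatory light chain of myosin, was at 2306 and 1786 in FAPs and at 432, 393 and 436 in injured FAPs. Its injured libraries lay far below both FAP libraries with little spread, and the log2 fold change was -2.27 (SE 0.130, adjusted p = 5.75e-07).

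Of the pericyte genes, Rgs5, a regulator that shortens G protein signalling, was at 6148 and 4583 in FAPs and at 1718, 2018 and 2091 in injured FAPs. Every injured library lay below both FAP libraries. The log2 fold change was -1.45 (SE 0.299, adjusted p = 0.00165). Kcnj8 encodes the pore subunit and Abcc9 the sulfonylurea receptor subunit of the vascular ATP-sensitive potassium channel. Kcnj8 was at 462 and 311 in FAPs and at 70.6, 93.0 and 91.5 in injured FAPs. Abcc9 was at 2481 and 2063 in FAPs and at 607, 660 and 742 in injured FAPs. Both subunits were lower in all 3 injured libraries than in either FAP library. The log2 fold change was -2.16 for Kcnj8 (SE 0.291, adjusted p = 1.03e-04) and -1.76 for Abcc9 (SE 0.184, adjusted p = 1.81e-05). Abcc9 shares 158 exonic bases with an antisense gene. Mcam, an adhesion molecule of pericytes, smooth muscle and endothelium also known as CD146, was at 805 and 796 in FAPs and at 324, 317 and 288 in injured FAPs. The spread within each group was small beside the gap between them. Its log2 fold change was -1.37 (SE 0.361, adjusted p = 0.00703).

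Cspg4, the proteoglycan NG2 of pericytes, stood apart from the other 9 members. It was at 3666 and 4176 in FAPs and at 4655, 3881 and 4406 in injured FAPs. The groups overlapped, and no change was called. The log2 fold change was 0.14 with a 95% interval from -0.13 to 0.40 (adjusted p = 0.333). With quantile normalization it was -0.02 (adjusted p = 0.915, range over all alternatives 0.195 to 0.915). Relative to Rgs5, Cspg4 was higher after injury: their ratio was 0.596 and 0.911 in FAPs and 2.71, 1.92 and 2.11 in injured FAPs. Bulk libraries cannot tell a change in the cells present from a change in the RNA of each cell. The cells that these transcripts came from were not tested.

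**Figure D1:**
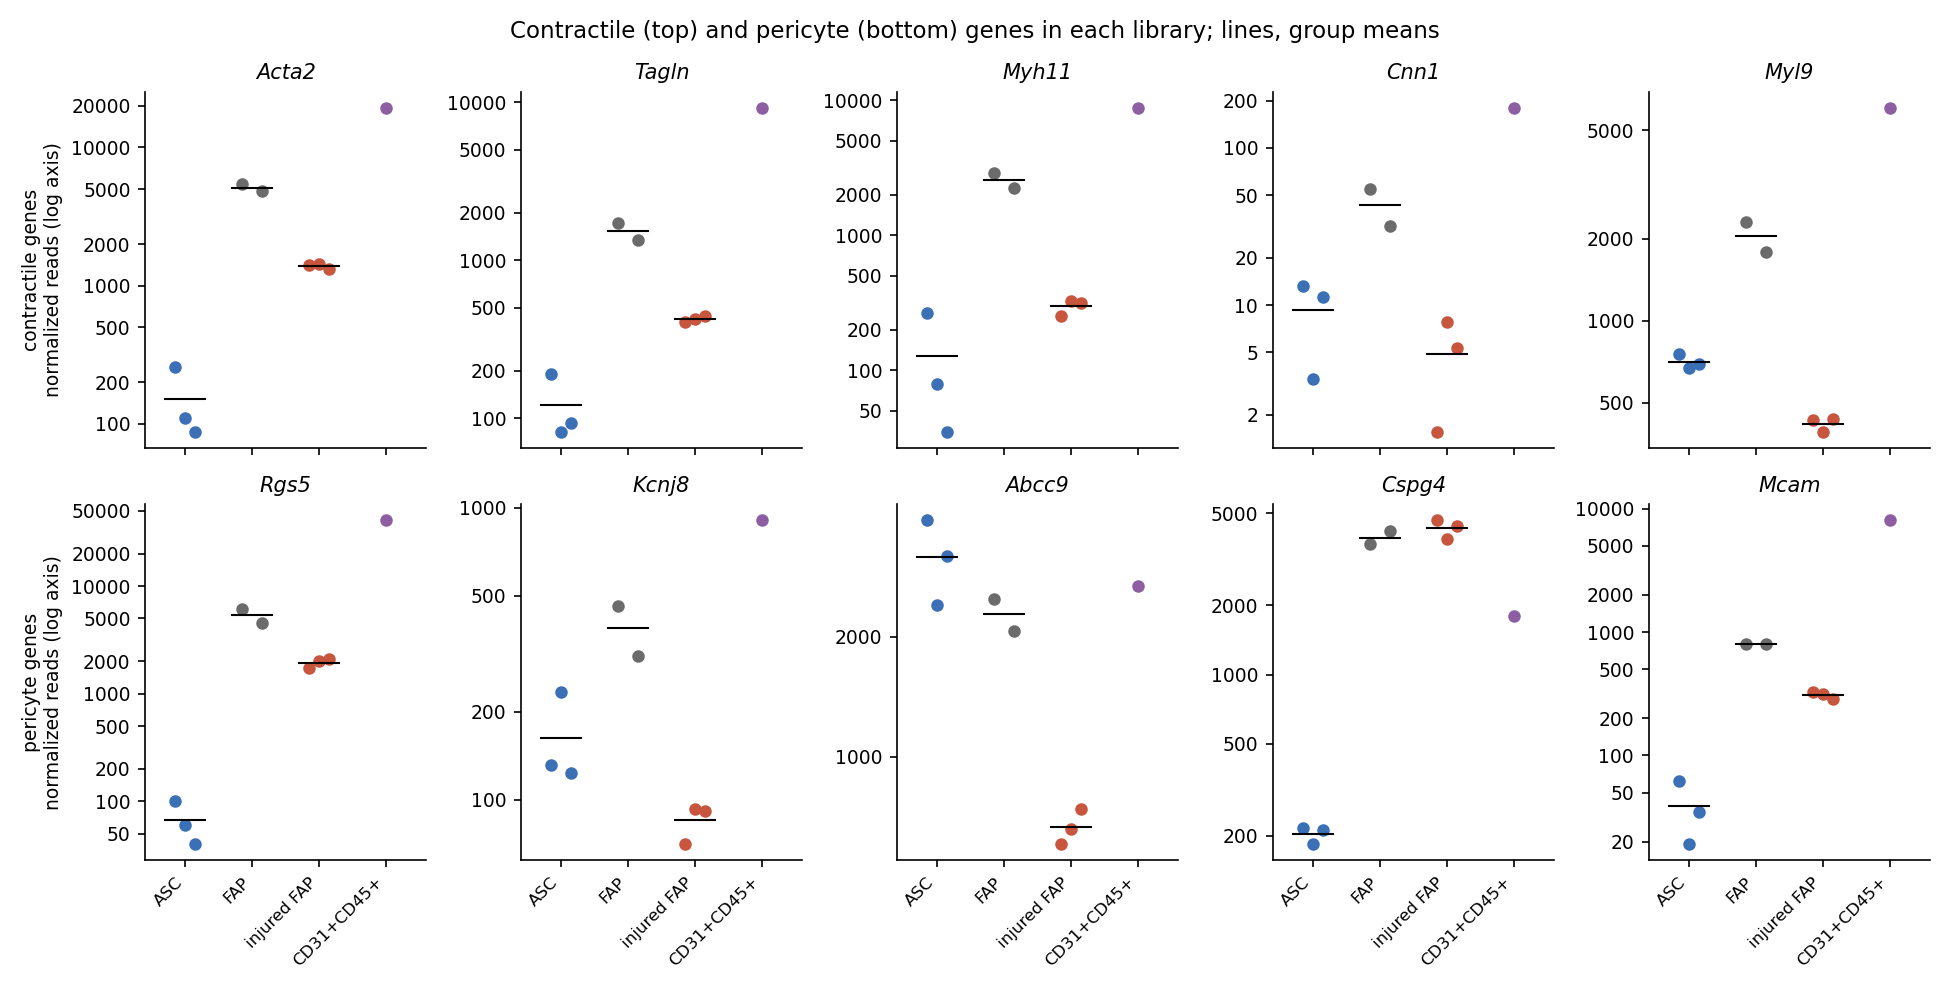
Normalized reads (log axis, a different range in each panel) of the 5 contractile genes (top row) and 5 pericyte genes (bottom row) in every library, with 1 point per library and a line at each group mean; the CD31+CD45+ group is 1 library. Acta2 lay between 4848 and 5396 in FAPs and between 1325 and 1441 in injured FAPs, whereas Cspg4 overlapped between these groups.

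The contractile and pericyte genes were set beside each other within each library. The ratio of Acta2 to Rgs5 was 0.878 and 1.06 in FAPs and 0.815, 0.714 and 0.634 in injured FAPs. All 3 injured libraries were below both FAP libraries, by a small margin for the nearest pair. The ratio of Myh11 to Rgs5 was 0.467 and 0.490 in FAPs and 0.147, 0.162 and 0.151 in injured FAPs. Here the groups were far apart and each was narrow. The ratio of Tagln to Rgs5 was 0.281 and 0.294 in FAPs and 0.238, 0.212 and 0.212 in injured FAPs. The ratio of Myl9 to Rgs5 was 0.375 and 0.390 in FAPs and 0.251, 0.195 and 0.208 in injured FAPs. For each of these 4 contractile genes the ratio to Rgs5 was lower in every injured library than in both FAP libraries, but this did not hold for Kcnj8 as the pericyte gene. The ratio of Tagln to Kcnj8 was 3.74 and 4.33 in FAPs and higher, at 5.79, 4.59 and 4.84, in injured FAPs. The ratio of Acta2 to Kcnj8 overlapped, at 11.7 and 15.6 in FAPs and 19.8, 15.5 and 14.5 in injured FAPs, as did that of Myl9. Of the 4 genes, Myh11 alone was lower against Kcnj8 in all 3 injured libraries, at 6.22 and 7.21 in FAPs and 3.59, 3.51 and 3.45 in injured FAPs. The ratio of the potassium channel subunits, Abcc9 to Kcnj8, was 5.37 and 6.63 in FAPs and 8.59, 7.09 and 8.11 in injured FAPs, all 3 of which were above both FAP libraries. These ratios use reads of genes of different length and can be compared only between libraries, and no test was run on them.

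**Figure D2:**
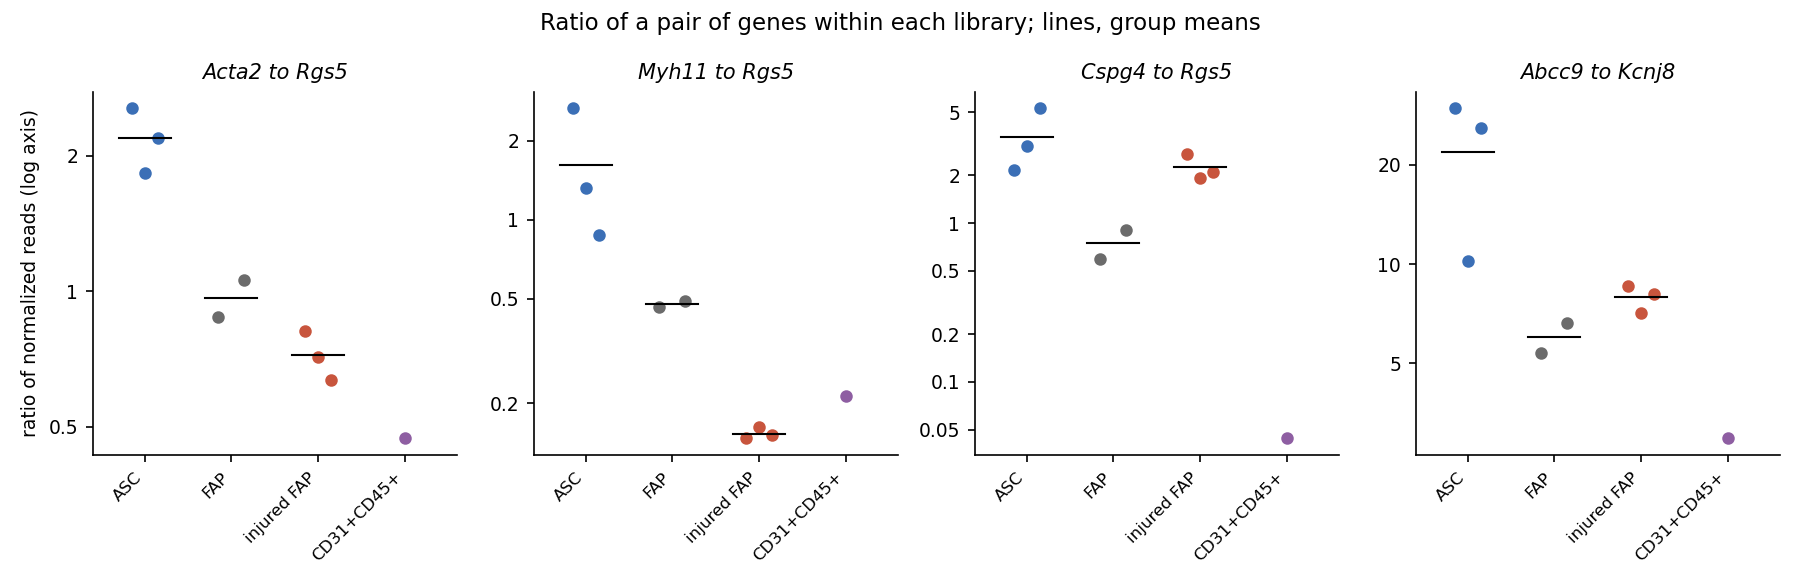
Ratio of normalized reads of a pair of genes within each library (log axis, a different range in each panel), with 1 point per library and a line at each group mean. Myh11 to Rgs5 lay between 0.467 and 0.490 in FAPs and between 0.147 and 0.162 in injured FAPs, while Cspg4 to Rgs5 was higher in all 3 injured FAP libraries than in both FAP libraries.

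Most other genes listed for the same cells were lower after injury as well. Of 16 accessory genes of smooth muscle, all tested, 11 were called lower, 1 higher and 4 neither (median log2 fold change -1.25). The largest falls were in Pln (-4.00, adjusted p = 0.00175) and Casq2 (-3.41, adjusted p = 1.14e-05), which encode phospholamban and a calsequestrin that regulate and store calcium in the sarcoplasmic reticulum. Pln was at 66.6 and 34.8 in FAPs and at 1.57, 5.42 and 0.763 in injured FAPs, the injured values lying around the value of 3 reads, which was between 2.29 and 2.35 in these libraries. The place of Pln depended on the setting. Over the alternatives it lay between -4.53 and -2.44, against -3.66 to -3.13 for Casq2 and -3.62 to -3.07 for Lmod1. The rise was in Cald1, which encodes caldesmon with forms in muscle and in other cells, from 7763 and 7118 to 17805, 18073 and 19236 (log2 fold change 1.30, adjusted p = 7.68e-06). Of 16 accessory genes of mural cells, 15 were tested, 11 were called lower, none higher and 4 neither (median -1.34), and 12 lower with quantile normalization or a common 75th percentile. Heyl, a Notch target (-2.73, adjusted p = 4.50e-07), and Gucy1a1, a subunit of the nitric oxide receptor (-2.69, adjusted p = 1.14e-05), fell most. Their order with Ndufa4l2 depended on the setting. Over the alternatives Ndufa4l2 lay between -2.94 and -2.63, against -2.90 to -2.66 for Heyl and -2.83 to -2.56 for Gucy1a1. Higd1b, too low to be tested, was at 31.4 and 26.3 in FAPs and at 4.71, 9.30 and 6.86 in injured FAPs. Pdgfrb, the receptor through which endothelium recruits pericytes and which fibroblasts also express, was at 12872 and 13030 in FAPs and at 10580, 9973 and 9723 in injured FAPs (log2 fold change -0.36, adjusted p = 0.0131), under the fold threshold.

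Genes for proteins that take the place of the contractile ones in cells other than smooth muscle were mixed, with more called higher than lower. Of 12 such cytoskeletal counterparts, 7 were called higher, 1 lower and 4 neither in injured FAPs (median log2 fold change 0.63). Tpm4, a non-muscle tropomyosin, rose most (1.30, adjusted p = 2.39e-06), followed by Myh9, a non-muscle myosin heavy chain (1.17, adjusted p = 1.54e-04). Myl12b was the gene called lower (-0.89, adjusted p = 3.32e-05). Myh9 was at 6490 and 6420 in FAPs and at 14738, 15291 and 13652 in injured FAPs, so that the ratio of Myh11 to Myh9 went from 0.443 and 0.350 to 0.0172, 0.0213 and 0.0231. Actb, cytoplasmic beta actin, was called higher (0.59, adjusted p = 0.00159), but not with a common 75th percentile (0.52), without FAP 1 (0.54) or without injured FAP 1 (0.56). Myl12a was called higher (0.66, adjusted p = 2.60e-04), but not with quantile normalization (0.55).

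Of 7 genes for Srf, Tead1 and their cofactors (Srf, Myocd, Mrtfa, Mrtfb, Tead1, Yap1 and Wwtr1), 6 were tested, of which 1 was called higher, 1 lower and 4 neither (median 0.14). Tead1, which binds the MCAT motif, rose (1.21, adjusted p = 7.79e-06). Mrtfb, a cofactor of Srf, was called lower (-0.62, adjusted p = 0.00199), but not without FAP 2 (-0.47) or without injured FAP 3 (-0.57). Myocd, myocardin, the Srf cofactor of differentiated smooth muscle, was too low to be tested, at 38.0 and 15.1 in FAPs and 3.14, 2.33 and 0.763 in injured FAPs. Of 11 Srf and Yap target genes of motile cells, 4 were called higher, 1 lower and 6 neither (median 0.48). The counts were 5 higher and 1 lower with quantile normalization and 3 higher and 2 lower with a common 75th percentile. Actn1, an alpha-actinin of stress fibers (1.81, adjusted p = 5.66e-05), and Itga5, the alpha subunit of the fibronectin receptor (1.56, adjusted p = 8.56e-05), rose most, and Tgfb1i1, a focal adhesion protein, was the gene called lower (-1.11, adjusted p = 4.48e-05). Of 8 matrix genes of myofibroblasts, 4 were called higher, 3 lower and 1 neither (median 0.44), with 1 lower under quantile normalization. Postn, periostin, rose from 5882 and 4752 to 25634, 31209 and 30355 (2.45, adjusted p = 6.06e-07). Cthrc1 was called higher (2.25, adjusted p = 0.0216), but not without FAP 2 (1.75), injured FAP 2 (2.16) or injured FAP 3 (2.21). Col1a1 was called lower (-1.59, adjusted p = 3.85e-04), though with quantile normalization it was at -0.04 and not called. Lrrc15 was called lower (-1.35, adjusted p = 0.0102), but not without FAP 1 (-0.99). Of the 4 genes of the ATP-sensitive potassium channel family, the 2 tested were Kcnj8 and Abcc9, both called lower (median -1.96).

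**Figure D3:**
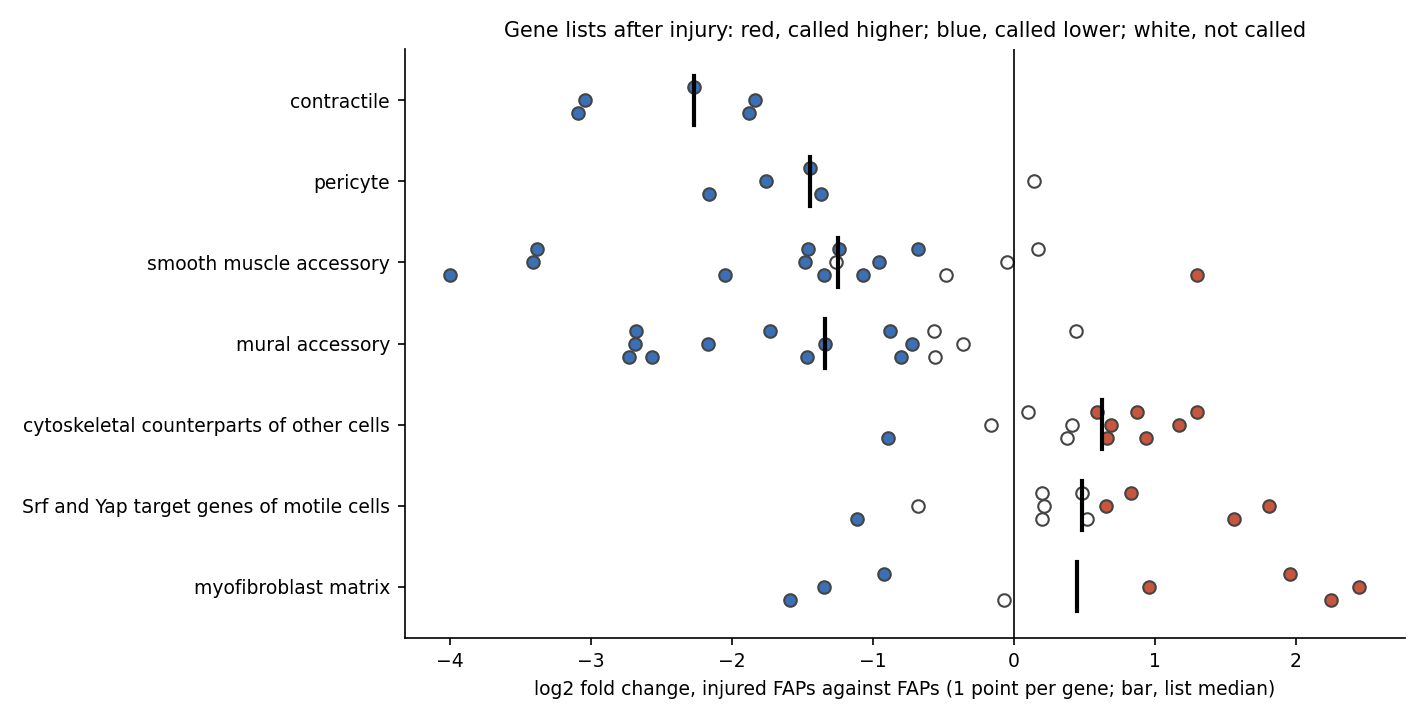
Log2 fold change in injured FAPs against FAPs of each tested gene in 7 lists, with 1 point per gene, red where called higher, blue where called lower and white where not called, and a bar at each list median. The contractile genes had a median of -2.27 and the cytoskeletal counterparts a median of 0.63; within the matrix list, Col3a1 turned from -0.92 to 0.37 with quantile normalization.

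Genes of other cell types were measured beside these results, and their part in them was not tested. Of 7 genes of the sorted stromal cells, 5 were called lower, 1 higher and 1 neither (median -1.23), with 4 lower under quantile normalization. Of 12 endothelial genes, 11 were tested, of which 5 were called lower, 2 higher and 4 neither (median -0.69), with 6 lower and 3 higher under quantile normalization. Without FAP 1 the balance turned to 3 lower and 4 higher, as Egfl7 (-0.97) and Esam (-1.12) lost their calls and Pecam1 and Ptprb (1.09) were called higher. Their summed value was 6196 and 4045 in FAPs and 1800, 2008 and 1533 in injured FAPs, led by Tek in FAPs (2120 and 1890) and by Cdh5 in injured FAPs (between 537 and 663). In ASCs Tek was higher still, at 5986, 4841 and 6700, while Cdh5 there was between 59.0 and 122.5. The sums that Tek leads therefore need not stand for endothelial cells alone, and the source of its reads was not tested. Kdr, a receptor for vascular endothelial growth factor, was at 1055 and 684 in FAPs and at 103, 98.4 and 80.9 in injured FAPs (log2 fold change -3.17, adjusted p = 8.82e-05). Pecam1, which encodes the CD31 used for depletion, was at 195 and 0 in FAPs and at 192, 269 and 121 in injured FAPs, with no change called (adjusted p = 0.0594). Its call without FAP 1 set the injured libraries against the 1 FAP library listed at 0, and it was also called higher with quantile normalization and with a replicate block. The 2 endothelial genes called higher, Emcn and Cldn5, and also Vwf, were listed at 0 in both FAP libraries. Each was above 0 in all 3 injured libraries. Such zeros were not confined to these genes: 50 genes were at 0 in both FAP libraries and at 5 or more in each of the other 7, of which 47 were highest in the CD31+CD45+ library. The same count was 5 for ASCs, 0 for injured FAPs and 115 for the single CD31+CD45+ library, and no member was among these genes. Whether such a 0 is a measured absence cannot be told from the table.

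The summed value of 12 leukocyte genes was 292 and 546 in FAPs and 541, 2308 and 475 in injured FAPs. Injured FAP 2 stood out and was led by Lyz2 at 725, whereas Cd68 led the other 4 of these libraries. Of the 8 tested, 5 were called higher, none lower and 3 neither (median 4.82, or 3.57 with the 5 genes at 0 in both FAP libraries set to the 3-read floor). The 5 called higher were these same 5 genes, and the 3 tested genes with reads in FAPs, Itgam, Cd68 and Cd79a, were not called. Itgam was called higher with edgeR (3.76) and with only the compared groups in the fit (2.43), and was highest in injured FAP 2 (251). Cd68 was called lower without injured FAP 2 (-0.82) and Cd79a without FAP 1 (-1.12). Ptprc, which encodes CD45, was at 0 in both FAP libraries and at 11.8, 55.8 and 9.91 in injured FAPs. Without injured FAP 2 all 5 contractile and 4 of the 5 pericyte genes were still called lower. The 6 satellite cell genes, of which Des is also on the smooth muscle accessory list, summed to 1688 and 1736 in FAPs and between 852 and 883 in injured FAPs, led by Itga7 in 4 of these 5 libraries, and of 5 tested 3 were called lower, none higher and 2 neither (median -0.96). Des (713 and 725 in FAPs) and Itga7 (916 and 879.6) made up most of this sum. Pax7, the defining gene of satellite cells, was at 31.4 and 65.9 in FAPs and between 5.34 and 11.8 in injured FAPs. The 8 skeletal muscle fibre genes summed to 781 and 950.2 in FAPs and between 242 and 304 in injured FAPs, and of 7 tested 4 were called lower, none higher and 3 neither (median -1.22), with 2 lower under quantile normalization and 6 under edgeR. The most abundant of them was Acta1 in FAP 1 (271) and Tnnt3 in FAP 2 (464). The 6 Schwann cell genes summed to 1531 and 2340 in FAPs and between 1094 and 1385 in injured FAPs, led by Ncam1 in all 3 injured libraries, and 3 were called lower, none higher and 3 neither (median -1.19), with 2 lower under quantile normalization. The 3 lymphatic endothelial genes summed to 180 and 215 in FAPs and between 78.6 and 104 in injured FAPs, led by Prox1, with 2 called lower and 1 higher (median -1.11), and Lyve1 was at 0 in both FAP libraries.

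The tissue of origin was asked about next, by setting ASCs against FAPs, both from NaCl-injected mice. This comparison uses the same FAP libraries as the one above, so the directions of both share their controls. All 5 contractile genes and 4 of the 5 pericyte genes were called lower in ASCs, and no member was called higher. Over all genes tested, 23.8% were called lower and 23.4% higher. The median log2 fold change was -3.73 for the contractile genes and -4.26 for the pericyte genes, against 0.00 for all genes tested. The ASC libraries were all below the FAP libraries for 9 of the 10 members, the exception being Abcc9. This was so for 35.4% of all genes tested, and 72.2% did not overlap in either direction.

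Rgs5 was at 100.1, 60.03 and 40.2 in ASCs, far below the 6148 and 4583 of FAPs. Its log2 fold change was -6.39 (SE 0.299, adjusted p = 1.35e-07), the largest of the 10. Acta2 was at 256, 109.9 and 87.9 in ASCs (log2 fold change -5.23, SE 0.342, adjusted p = 1.04e-06). Myh11 was at 266, 79.3 and 35.2 in ASCs (-4.79, SE 0.610, adjusted p = 8.60e-05). For all 3 genes ASC 1 was the highest of the ASC libraries and still lay far below the FAP libraries. Mcam was at 61.9, 19.3 and 35.2 in ASCs (-4.48, adjusted p = 3.87e-06). Cspg4, which did not differ after injury beyond its spread, was at 216, 185 and 212 in ASCs (-4.26, SE 0.120, adjusted p = 8.81e-09). Tagln was at 189.7, 82.7 and 94.2 in ASCs (-3.73, adjusted p = 3.22e-06). Each of these genes had every ASC library below every FAP library. Cnn1 was at 13.2, 3.40 and 11.3 in ASCs, or 10, 3 and 9 reads (-2.23, adjusted p = 0.0157). This call was lost without FAP 1 (-1.85, adjusted p = 0.119) and with quantile normalization (-1.70, adjusted p = 0.0848), the adjusted p ranging from 0.00309 to 0.119 over all alternatives.

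The potassium channel genes and Myl9 were closer between tissues. Myl9 was at 756, 671 and 693 in ASCs (log2 fold change -1.52, SE 0.130, adjusted p = 5.65e-06). Kcnj8 was at 132, 234 and 123 in ASCs (-1.28, SE 0.291, adjusted p = 0.00347). Both remained below both FAP libraries in every ASC library. Abcc9 was at 3902, 2402 and 3182 in ASCs, against 2481 and 2063 in FAPs. The groups overlapped, and no change was called (0.45, 95% interval 0.05 to 0.86, adjusted p = 0.0533). Without ASC 2 it was called higher (0.64, adjusted p = 0.00387, range over all alternatives 0.00387 to 0.673). The ratio of Abcc9 to Kcnj8 was 29.6, 10.2 and 25.9 in ASCs, above both FAP libraries in all 3. The other channel pair, Kcnj11 and Abcc8, was at or below 6.59 in every ASC library and at or below 27.6 in FAPs.

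**Figure D4:**
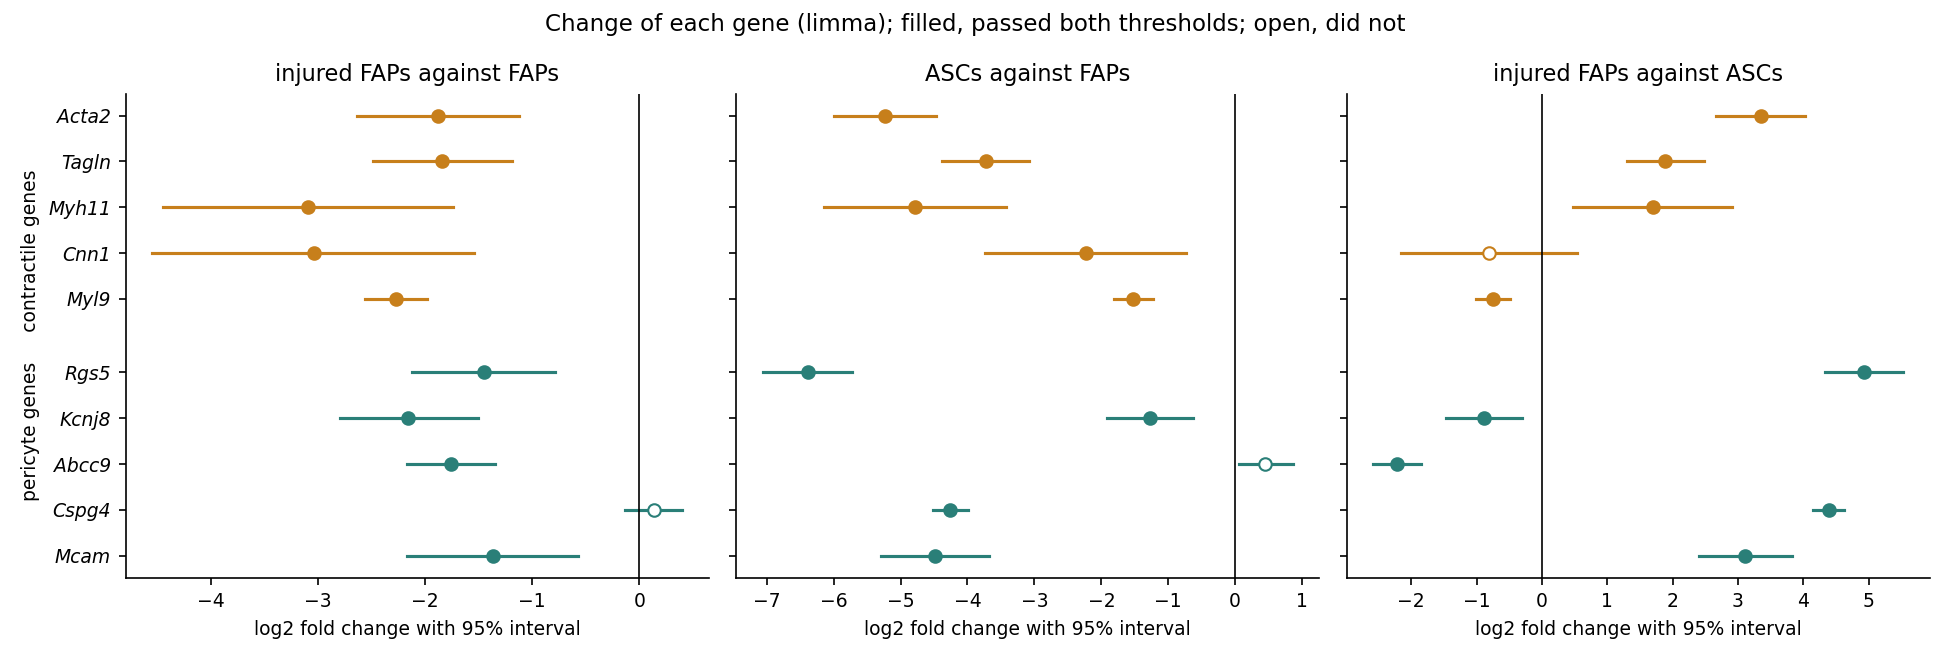
Log2 fold change (point) and 95% interval (line) of the 10 members in each of the 3 comparisons, contractile genes in orange and pericyte genes in green, filled where the gene was called. Cspg4 lay at 0.14 in injured FAPs against FAPs and at -4.26 in ASCs against FAPs; Abcc9 was not called in ASCs against FAPs.

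ASC 1 was the highest of the 3 ASC libraries for 9 of the 10 members, the exception being Kcnj8. Against the mean of ASC 2 and ASC 3, its value was 4.65 times as high for Myh11, 2.58 times for Acta2, 2.28 times for Mcam and 2.15 times for Tagln, but 1.11 times for Myl9 and 1.09 times for Cspg4. ASC 1 was also the highest ASC library for 9 of the 12 endothelial genes. Their summed value, dominated by Tek, was 6574, 5230 and 7009 in ASC 1, ASC 2 and ASC 3. FAP 1 was above FAP 2 for 9 of the 10 members, the exception being Cspg4, and for 9 of the 12 endothelial genes, none of which was lower in FAP 1. The part of these differences in the results was not tested. Leaving out any 1 library changed no member's call in injured FAPs against FAPs, whereas in ASCs against FAPs it changed those of Cnn1 (without FAP 1) and Abcc9 (without ASC 2), and in injured FAPs against ASCs those of Myh11 and Kcnj8.

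Of the 16 accessory smooth muscle genes, 14 were called lower in ASCs, none higher and 2 neither (median -1.92), with 15 lower under a common 75th percentile. Casq2, at 1.32, 1.13 and 1.25 in ASCs against 357 and 253 in FAPs, stood for 1 read in each ASC library. Its log2 fold change was -7.08 (adjusted p = 1.36e-07). Pln followed, at 2.63, 0 and 0 in ASCs against 66.6 and 34.8 in FAPs (-5.00, adjusted p = 5.03e-04). Over the alternatives Pln lay between -5.92 and -2.68, against -5.06 to -3.88 for Lmod1, so its place depended on the setting. Of the 15 accessory mural genes tested, 11 were called lower, 2 higher and 2 neither (median -2.42). Cox4i2, a subunit of the respiratory chain (-4.06, adjusted p = 9.17e-06), and Heyl (-4.03, adjusted p = 3.83e-08) fell most on the log2(value + 1) scale. By the ratio of group means Trpc6 was lower (0.0468 against 0.0510 for Cox4i2). The 2 genes called higher were Steap4 (1.03, adjusted p = 2.75e-05) and Agtr1a (0.72, adjusted p = 0.00124). Neither was called with quantile normalization (0.32 and 0.51), and Agtr1a was not called with a common 75th percentile (0.52). Of the 12 cytoskeletal counterparts, 2 were called higher, 2 lower and 8 neither (median 0.20), against 0 higher and 4 lower with quantile normalization (median -0.36). The 2 called lower were Cnn2 (-1.35, adjusted p = 6.92e-06) and Myh9 (-1.09, adjusted p = 3.12e-04). The 2 called higher, Actg1 and Tpm3, were not called with quantile normalization, at -0.02 and 0.22. Of the 6 tested genes for Srf, Tead1 and their cofactors, 1 was called higher and 5 neither (median 0.19), whereas 0 were higher and 2 lower with quantile normalization or a common 75th percentile. Of the 11 Srf and Yap target genes, 2 were called higher, 4 lower and 5 neither (median -0.27), and 1 higher and 8 lower with quantile normalization (median -0.87). Of the 8 matrix genes 4 were called higher, 1 lower and 3 neither (median 0.98), and 3 higher and 2 lower with quantile normalization (median 0.51).

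Genes of the other cell types in ASCs against FAPs were as follows, and their part was not tested. Of the 11 endothelial genes tested, 7 were called lower, 3 higher and 1 neither (median -2.80), and of the 8 leukocyte genes 3 were called higher, none lower and 5 neither (median 1.11, or 0.29 with the 3-read floor). All 3 of these leukocyte genes and 2 of the 3 endothelial genes called higher were at 0 in both FAP libraries. Cd68, which had reads in FAPs, was called lower with a common 75th percentile (-1.19), with DESeq2 (-1.04), with only the compared groups, without FAP 1 (-1.44) and without injured FAP 2 (-0.99). Of the 7 genes of the sorted stromal cells 4 were called higher, none lower and 3 neither (median 0.67), and 2 higher and 1 lower with quantile normalization (median -0.12). The leukocyte genes summed to between 399 and 448 in ASCs, led by Cd68 in ASC 1 and ASC 3 and by Csf1r in ASC 2, and Ptprc was at 0, 1.13 and 0. Of 5 satellite cell genes 4 were called lower and 1 neither (median -1.43), and their sum was between 581 and 929 in ASCs, mostly from Des and Itga7, with Pax7 at 0 in all 3. Of 7 skeletal muscle fibre genes 6 were called lower and 1 neither (median -3.45), with a sum between 144 and 178 in ASCs, led by Tnnt3. Of 6 Schwann cell genes 5 were called lower and 1 neither (median -1.68), with a sum between 910.1 and 1279 in ASCs, led by Mbp. Quantile normalization left 3 Schwann cell, 3 satellite cell and 6 endothelial genes called lower. Of 3 lymphatic endothelial genes 1 was called higher, 1 lower and 1 neither (median 0.26), with a sum between 145 and 217 in ASCs, led by Prox1.

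Injured FAPs were then set against ASCs, the comparison that asks how far cells of injured muscle and of adipose tissue differ. Here the members split. Of the contractile genes, 3 were called higher in injured FAPs, 1 lower and 1 neither, and of the pericyte genes 3 were called higher and 2 lower. Over all genes tested, 25.0% were called higher and 25.8% lower. The median was 1.70 for the contractile genes and 3.11 for the pericyte genes, against 0.02 for all genes tested. Rgs5 (4.93, adjusted p = 1.71e-07), Cspg4 (4.39, adjusted p = 2.28e-09), Acta2 (3.35, adjusted p = 5.46e-06), Mcam (3.11, adjusted p = 1.33e-05) and Tagln (1.89, adjusted p = 1.05e-04) were higher in injured FAPs, with no overlap of libraries. Over all genes tested, 71.8% did not overlap. Abcc9 (-2.22, adjusted p = 1.26e-06), Kcnj8 (-0.88, adjusted p = 0.0123) and Myl9 (-0.75, adjusted p = 2.31e-04) were lower in injured FAPs, again with no overlap. Both subunits of the potassium channel were thus higher in ASCs than in injured FAPs, while Rgs5 and Cspg4 were lower. Before scaling, Myl9 had 550, 507 and 571 reads in injured FAPs and 574, 592 and 552 in ASCs. Kcnj8 had 90, 120 and 120 reads in injured FAPs and 100, 207 and 98 in ASCs. The gap in these genes thus depends on the scaling, with size factors between 0.759 and 0.883 in ASCs and between 1.275 and 1.311 in injured FAPs. With quantile normalization Myl9 was at -0.79 and Kcnj8 at -1.03. Without injured FAP 1 the Kcnj8 call was lost (-0.75, adjusted p = 0.0519, range over all alternatives 0.00229 to 0.0519). Myh11 was called higher (1.70, adjusted p = 0.0186), although ASC 1 at 266 lay within the injured range of 253 to 326. That call was lost without ASC 3 (1.02, adjusted p = 0.0554), without injured FAP 2 (1.63, adjusted p = 0.0503), without injured FAP 3 (1.65, adjusted p = 0.0558) and with DESeq2 (1.25, adjusted p = 0.122), the adjusted p ranging from 1.95e-05 to 0.122 over all alternatives. Cnn1 overlapped between the groups and was not called (-0.81, adjusted p = 0.260).

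Of the 16 accessory smooth muscle genes, 9 were called higher in injured FAPs, 1 lower and 6 neither (median 1.07), and of the 15 accessory mural genes 7 were called higher, 4 lower and 4 neither (median 0.34). With quantile normalization 8 of these mural genes were higher and 3 lower (median 0.87). Lmod1, called higher, was kept in 9 of 19 alternatives, and Steap4, called lower, in 11 of 19. Casq2 was at 30.6, 24.8 and 26.7 in injured FAPs, against 1 read in each ASC library (3.66, adjusted p = 2.44e-06). Tpm2, beta tropomyosin, was at 719, 698 and 829 in injured FAPs and at 125, 69.1 and 33.9 in ASCs (3.47, adjusted p = 1.33e-05). Ednrb, an endothelin receptor, was at 209, 284 and 214 in injured FAPs and at 46.1, 19.3 and 11.3 in ASCs (3.36, adjusted p = 3.59e-05). The largest falls among these genes were in Agtr1a (-1.60, adjusted p = 1.66e-06) and Vtn (-1.10, adjusted p = 1.81e-05). Of the 12 cytoskeletal counterparts 4 were called higher, 1 lower and 7 neither (median 0.47), and 9 higher with quantile normalization (median 0.85) or 6 with a common 75th percentile or edgeR. Of the 6 tested genes for Srf, Tead1 and their cofactors 2 were called higher, 1 lower and 3 neither (median 0.12), and 3 higher and 0 lower with quantile normalization, a common 75th percentile or edgeR. Of the 11 Srf and Yap target genes 4 were called higher, none lower and 7 neither (median 0.51), and 7 higher with quantile normalization (median 0.78). Of the 8 matrix genes 2 were called higher, 5 lower and 1 neither (median -1.23), but 2 lower with quantile normalization (median 0.18), where Postn (0.28) and Col3a1 (0.07) turned in sign. Of the 7 genes of the sorted stromal cells 1 was called higher and 6 lower (median -1.86), but 3 lower with quantile normalization (median -0.16). Among the genes of other cell types, 7 of 11 endothelial, 5 of 8 leukocyte, 2 of 5 satellite cell, 5 of 7 muscle fibre, 1 of 6 Schwann cell and 1 of 3 lymphatic endothelial genes were called higher. Called lower were 1 endothelial, 2 leukocyte, 2 Schwann cell and 2 lymphatic endothelial genes. The leukocyte genes were Csf1r, kept in 5 of 19 alternatives, and Cd79a, kept in 9 of 18, and neither was called with a common 75th percentile, edgeR or DESeq2. The lymphatic gene Lyve1 was kept in 10 of 18, and among the genes called higher the fibre gene Myh1 was kept in 7 of 15. Their part in the differences of the members was not tested.

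Levels per kilobase of exon allow the members to be put in order within a group. In FAPs Acta2 was highest at 2517 ± 191 normalized reads per kb (SD, n = 2), followed by Myl9 at 1814 ± 326. Rgs5 at 1180 ± 243 and Tagln at 965 ± 168 came next and did not differ beyond their spread. Cspg4 (483 ± 44.5) and Myh11 (387 ± 67.1) were within their summed SDs of each other, as were Abcc9 (271 ± 35.3) and Mcam (268 ± 2.25), before Kcnj8 (152 ± 41.8) and Cnn1 (17.3 ± 6.50). In injured FAPs (SD, n = 3) Acta2 was again highest at 682 ± 29.0 per kb. Cspg4 was next at 531 ± 48.7, ahead of Rgs5 at 427 ± 43.4 and Myl9 at 372 ± 20.9, the last 2 lying within their summed SDs. Tagln (267 ± 10.8), Mcam (104 ± 6.33), Abcc9 (79.9 ± 8.16), Myh11 (45.2 ± 5.96), Kcnj8 (33.4 ± 4.91) and Cnn1 (1.94 ± 1.24) followed. Myh11 had gone from above Abcc9 and Mcam in FAPs to below both in injured FAPs. In ASCs (SD, n = 3) the order was different. Myl9 at 626 ± 39.4 per kb and Abcc9 at 378 ± 89.6 led. Tagln (76.6 ± 36.8), Acta2 (74.3 ± 44.8) and Kcnj8 (64.0 ± 24.32) did not differ beyond their spread. Cspg4 (25.2 ± 2.11) was above Rgs5 (14.7 ± 6.72) and Mcam (12.97 ± 7.21), while Myh11 (19.2 ± 18.6) varied too widely to be placed among them, and Cnn1 had the lowest mean at 3.69 ± 2.06. By mean, Rgs5 was number 3 of the 10 members in FAPs and number 8 in ASCs.

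The CD31+CD45+ library had the highest value of all 9 libraries for 8 of the 10 members. Rgs5 was at 40800 there, 7.60 times the FAP mean. Mcam was at 8021, the largest multiple of the FAP mean of the 10 members. Acta2 was at 19236, Tagln at 9150, Myh11 at 8726, Myl9 at 6025, Kcnj8 at 906 and Cnn1 at 179. These 6 ranged from 2.34 times the FAP mean for Kcnj8 to 5.95 times for Tagln. Cspg4 and Abcc9 were the exceptions. Cspg4 was at 1792, or 0.457 times the FAP mean and 0.415 times the injured FAP mean. Abcc9 was at 2677, above both FAP libraries and below ASC 1 and ASC 3. The library carried the endothelial genes Cdh5 at 98652 and Pecam1 at 45323, and its 12 endothelial genes summed to 355681. Ptprc was at 797, and the 12 leukocyte genes summed to 16634. The cells of this library had thus been named after endothelial and leukocyte surface proteins, and all 10 members were also measured in it. It had 1 library and came from glycerol-injected muscle only, so it has no replicate check and no counterpart in NaCl-injected muscle.

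As a share of the CD31+CD45+ value, the contractile genes lay between 14.7% and 38.3% in FAPs and between 0.877% and 7.49% in injured FAPs. For Rgs5 the share was 15.1% and 11.2% in FAPs and 4.21%, 4.95% and 5.12% in injured FAPs. For Kcnj8 it was 51.0% and 34.4% in FAPs and 7.80%, 10.3% and 10.1% in injured FAPs. For Abcc9 it was 92.7% and 77.1% in FAPs and 22.7%, 24.6% and 27.7% in injured FAPs, above the contractile range of the group in every library. Kcnj8 was above that range in FAP 1 and in every injured library, and within it in FAP 2. Rgs5 was within the range, or below it in FAP 2. For Mcam it was 9.92% in FAP 2, close to FAP 1, and 4.04%, 3.95% and 3.59% in injured FAPs. For Cspg4 it was above 100% in both groups, at 205% and 233% in FAPs and 260%, 217% and 246% in injured FAPs. For the 12 endothelial genes the median share was 1.17% and 0.532% in FAPs and 0.445%, 0.610% and 0.340% in injured FAPs. These medians include the genes listed at 0 in FAPs, and single genes differed: Tek was at 16.2% and 14.4% in FAPs, above Rgs5 and Mcam, and at 3.02%, 2.80% and 2.78% in injured FAPs. Which cells the transcripts came from was not tested.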

How the data were processed

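RNA of sorted cells was sequenced in 9 libraries. Per the labels and the study's methods, the authors checked reads with FastQC, aligned them to mm10 with HISAT2, counted them per gene with Subread and scaled them with DESeq2; strand and multiple matches are not given in the sources used here. The deposited signal values are these reads divided by 1 size factor per library. Low values gave the factor back, and 100% of values in each library were whole reads within 0.01. The value of 3 reads, the floor used here, lay between 2.29 and 4.71. 2 empty columns were not used.

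Genes with a mean of at least 10 over the 8 libraries of the replicated groups (13601) were tested with limma 3.58.1 (trend, R 4.3.3) on log2(value + 1), with 1 term per group and Benjamini-Hochberg adjustment. The edgeR 4.0.16 quasi-likelihood test and DESeq2 1.42.0, run on the recovered reads, were alternatives, beside other pseudocounts, filters and scalings, fewer groups in the fit, a replicate block, unadjusted p and leaving out each library. edgeR called 7303, 6450 and 7000 genes in the 3 comparisons in the order of the report. Exonic lengths and overlaps came from GENCODE basic annotation of GRCm38; at most 0.614% of the 50-base words of any member occurred in another gene's transcripts. Members and gene lists were chosen with earlier results of these data known. Named genes were the members, the called genes with the largest rises and falls of each related list, and the first 3 and most abundant genes of other cell types. Higd1b, Pdgfrb, Ndufa4l2, Myocd, Actb, Myl12a, Col3a1, Trpc6, Csf1r, Cd79a, Egfl7, Esam, Ptprb, Myh1, Lmod1, Steap4, the ratios to Kcnj8, the genes at 0 in FAPs and the looser CArG form were added after their values were seen. Python 3 with pandas and matplotlib drew the figures.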

Additional observations from a re-analysis of the deposited data

Results flagged for a closer look

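The CD31+CD45+ library entered no comparison. It gave a signal above every ASC, FAP and injured FAP library for 8 members. Acta2 was at 19236 normalized reads, Tagln at 9150, Myh11 at 8726, Cnn1 at 179 and Myl9 at 6025. Of the pericyte genes, Rgs5 was at 40800, Kcnj8 at 906 and Mcam at 8021. The highest other library was FAP 1 for each of the 8. With 1 library there is no spread to set these values against.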

How the results depend on the processing

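In injured FAPs against FAPs, the 9 member calls were kept under all alternatives in which the gene was tested, Cnn1 falling below the filter at a mean of 50. The exception in direction was Cspg4, not called, which moved from 0.14 to -0.02 with quantile normalization; the cause was not tested. Over the 3 comparisons, 566 values of single members were recomputed. Of these, 557 kept their direction and their side of the thresholds, 7 lost a call and 1 gained one; those that did are given beside the members. The number of contractile genes called ranged from 4 to 5 in ASCs against FAPs and from 3 to 4 in injured FAPs against ASCs, and that of pericyte genes from 4 to 5 in both. Without 1 FAP library the other is assumed to vary like the remaining groups. Genes called in all, 7153, 6416 and 6909 in the order of the report, stayed within 1.5 times of these counts under each alternative.

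With a common 75th percentile, the median of all genes moved from -0.05 to -0.13 in injured FAPs against FAPs, from 0.00 to -0.19 in ASCs against FAPs and from 0.02 to 0.14 in injured FAPs against ASCs. In ASCs against FAPs the share of calls that were higher moved from 49.6% to 37.8%. Relative to these medians Acta2 was at -1.83, -5.24 and 3.33 and Rgs5 at -1.40, -6.39 and 4.91.

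Replicate numbers are shared between groups, but nothing in the labels says that they pair the libraries, and deviations of same-numbered libraries correlated between -0.0545 and 0.0446. With a replicate block, 7046, 6287 and 6861 genes were called, and no member call changed. Few reads limit Cnn1, with 2 to 10 reads in injured FAPs and 3 to 10 in ASCs.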
